A study of Hydra viridissima with 2 samples.

Results

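Close divergent gene pairs are neighbouring genes that point away from each other, the first on the minus and the second on the plus strand, so that their starts face each other across a short gap. Pairs were taken where 1 to 1000 bp lay between the coding regions and both models had 2 or more exons. This rule found 198 pairs, which hold 396 of the 34573 gene models and are 198 of 34468 neighbouring pairs of models of any orientation. The rule uses positions, strands and exon numbers only, so the levels and ratios given here played no part in it. As a comparison, 1681 more distant divergent pairs had a gap over 1000 bp and 2 or more exons in both models.

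In animal genomes, genes that start back to back can share the stretch of DNA from which both are transcribed, a bidirectional promoter. Such pairs are known for having partners that are often both active, and in vertebrates many of them encode housekeeping proteins. Sharing a start region does not fix the amount of RNA from each partner, since each has its own core promoter, elongation and RNA stability. The models here hold coding sequence, so the gap runs between start codons and takes in both 5′ untranslated regions as well as any shared promoter.

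The RNA came from entire polyps of Hydra viridissima, the green hydra, a freshwater cnidarian that carries green algae in the epithelial cells of its gut. One library came from green, alga-bearing polyps of clone 2 (symbiotic) and 1 from polyps of clone 2 without algae (aposymbiotic), each from RNA of about 200 large animals pooled, so there are no replicates and each difference is one between these 2 libraries. Both cultures were kept at 24 degrees C, fed brine shrimp 3 to 4 times per week and harvested 2 to 3 days after feeding, and both RNAs had an integrity number of 10. Per the labels' protocols, total RNA was sequenced after enzymatic depletion of ribosomal RNA, although another label field names polyA RNA. All animals were of 1 clone. The symbiotic library held 6905650 counted read pairs and the aposymbiotic library 5533508. Members of the close pairs took 4.69% of the symbiotic and 4.71% of the aposymbiotic total. Models carry no gene names in the table, so members are given by position on the scaffolds of the table, and no marker list could be set against the labels. In whole animals, fewer cells of a type and less RNA per cell cannot be told apart.

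The close pairs lay on 18 scaffolds, with 29 on scaffold 2, 23 on scaffold 1 and 18 on scaffold 10. Their median gap was 539 bp, and the gaps ran from 76 to 996 bp. A gap of 1 to 1000 bp was less frequent between divergent neighbours than between other neighbours with several exons. It occurred in 10.3% of 1922 divergent pairs, against 13.9% of 2073 convergent pairs, whose ends face each other, and 22.8% of 5105 same-strand pairs. Over all distances, the median gap was 4911 bp for divergent, 3759 bp for convergent and 3521 bp for same-strand pairs. Overlapping or abutting models, with a gap under 1 bp, went the other way. They made up 2.24% of divergent, 1.40% of convergent and 0.803% of same-strand pairs. Short gaps without overlap were again less frequent between divergent neighbours. Within the close class, gaps of 1 to 200 bp made up 5.56% of the 198 divergent pairs (95% Clopper-Pearson interval 2.81 to 9.72), against 11.8% of the 288 convergent pairs (8.32 to 16.1) and 15.2% of the 1164 same-strand pairs (13.2 to 17.4). A gap of 100 bp or less was found in 1 divergent pair. The fullest bin of 100 bp, 301 to 400 bp, held 29 of the 198 pairs, and that of 801 to 900 bp held 27.

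**Figure D1:**
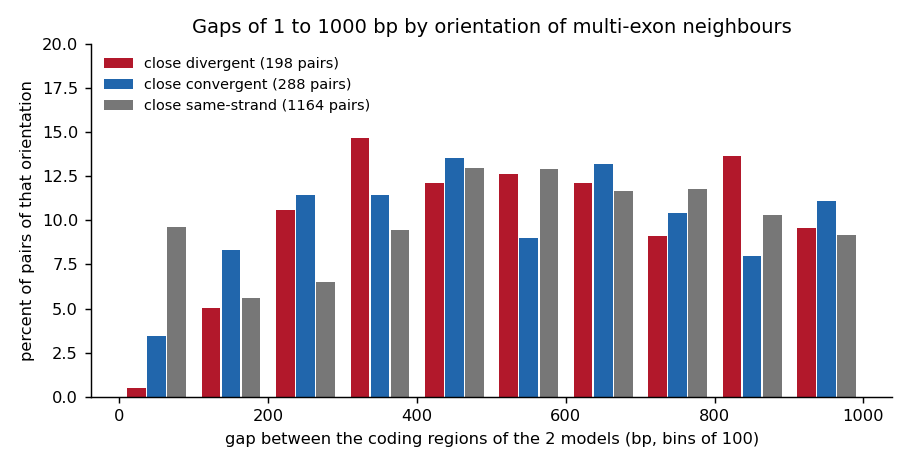
Percent of pairs of each orientation in bins of 100 bp of gap, for neighbouring models with 2 or more exons and a gap of 1 to 1000 bp. Divergent pairs start low, with 0.505% in the first bin against 3.47% for convergent and 9.62% for same-strand pairs, and their highest bin, 14.6%, is at 301 to 400 bp.

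Members of close pairs were somewhat shorter than partners of distant pairs, with a median coding length of 1050 nt (95% order-statistic interval 885 to 1170) against 1245 nt (1188 to 1293). Their median exon number was 5.5, against 5. The first coding exon was short, with a median of 103 nt against 127 nt, and the first intron after it was long, with a median of 483 nt (383 to 562) against 306 nt (281 to 326). The longer first intron was present in each gap class, with medians of 550.5, 425, 629 and 389 nt at gaps of 1 to 300, 301 to 500, 501 to 750 and 751 to 1000 bp, whereas it was 276 nt at gaps of 1001 to 2000 bp. First introns of convergent and same-strand close pairs had medians of 260 and 231 nt. On the far sides, the next model lay within 1000 bp of 16.7% of close members and of 18.4% of distant partners. Partners seldom had the same exon number, in 17 of 198 close pairs, 8.59%, against 12.1% of distant pairs. By rank, partners' exon numbers went together in the 32 pairs up to 300 bp, with a Spearman's rho of 0.57. At 301 to 500, 501 to 750 and 751 to 1000 bp it was 0.13, 0.096 and -0.019. For coding length, rho was only 0.18 over the pairs up to 300 bp. Of these 32 pairs, 2 had the same exon number and coding lengths within 10% of each other. Intervals over genes are those of a median or share, with genes taken as independent draws. They do not give the spread of single genes, and genes are not replicates.

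Expression was detected in nearly all members. Of the 396, 382 had at least 1 count, 351 had a mean of at least 1 CPM (counts scaled to a common library size) over the 2 libraries, 88.6%, and 275 had at least 10 CPM, 69.4%. Among distant partners these shares were 82.9% and 60.9%. Models without any count were also few in other sets. They were 6.46% of all models with 2 or more exons, 4.12% of same-strand and 1.91% of convergent close members. Pair by pair, both partners reached 1 CPM in 161 of 198 close pairs, 81.3% (95% Clopper-Pearson interval 75.2 to 86.5), against 71.6% of distant pairs (69.4 to 73.8). Single close members also reached 1 CPM more often than distant partners, and the part of this in the pair shares was not tested. The share of pairs was similar in close pairs of the other orientations, at 84.0% of convergent (79.3 to 88.1) and 81.0% of same-strand pairs (78.6 to 83.2). Exactly 1 partner reached 1 CPM in 29 close pairs and neither in 8. By gap, both did so in 81.3% of pairs up to 300 bp, 84.9% at 301 to 500 bp and 85.7% at 501 to 750 bp. At 751 to 1000 bp the share was 73.7% (60.3 to 84.5), near that of distant pairs. A partner of at least 10 CPM beside one under 1 CPM was found in 19 close pairs, 9.60% (5.88 to 14.6), and in 14.5% of distant pairs (12.8 to 16.2). Of the 19, 10 had gaps of 751 to 1000 bp, where they were 17.5% of 57 pairs (8.75 to 29.9). Such unequal pairs were 6.60% of convergent (4.02 to 10.1) and 3.35% of same-strand close pairs (2.39 to 4.55).

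To compare levels between genes, CPM was divided by coding length in kilobases. Among close members, the median was 20.4 CPM per kb for symbiotic polyps and 21.4 CPM per kb for aposymbiotic polyps. Averaged over both libraries it was 21.1 CPM per kb (18.3 to 24.8), against 15.3 CPM per kb (14.5 to 16.2) for distant partners and 13.3 CPM per kb for all models with 2 or more exons. This order depends on the exon rule: with models of any exon number admitted, the medians were 0 CPM per kb for close and 2.48 CPM per kb for distant pairs. Close members also reached high levels more often. At least 100 CPM per kb was found in 50 of 396 close members, 12.6% (9.52 to 16.3), against 8.30% of distant partners (7.39 to 9.28), and at least 1000 CPM per kb in 13 close members, 3.28% (1.76 to 5.55), against 0.982% (0.677 to 1.38). By median, the close members lay above the distant partners on 10 of the 12 scaffolds with 8 or more close pairs; on scaffold 9 the medians were 13.7 and 19.7 CPM per kb, and on scaffold 3 they were 18.4 and 18.5. No test was made, because a set of genes is no set of replicates.

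The difference in level lay among shorter genes. Members under 600 nt had a median of 20.3 CPM per kb (12.5 to 36.1, 105 models), against 8.13 CPM per kb (6.61 to 9.64) for distant partners of that length. From 600 to 1199 nt the medians were 24.3 (19.1 to 33.6) and 13.99 (11.6 to 15.3) CPM per kb. From 1200 to 2399 nt they were 18.6 and 18.5 CPM per kb, and from 2400 nt they were 22.4 and 20.02 CPM per kb. Short distant partners were thus low in level, while short close members stood at the level of long ones. The contrast among short genes was smaller where models with hardly any counts were left out. Over all members under 1200 nt, the medians were 22.9 CPM per kb for close and 10.96 CPM per kb for distant pairs. Over members of at least 1 CPM and under 1200 nt, the medians were 28.4 CPM per kb (23.6 to 38.4) for close and 19.2 CPM per kb (17.8 to 21.2) for distant pairs.

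**Figure D2:**
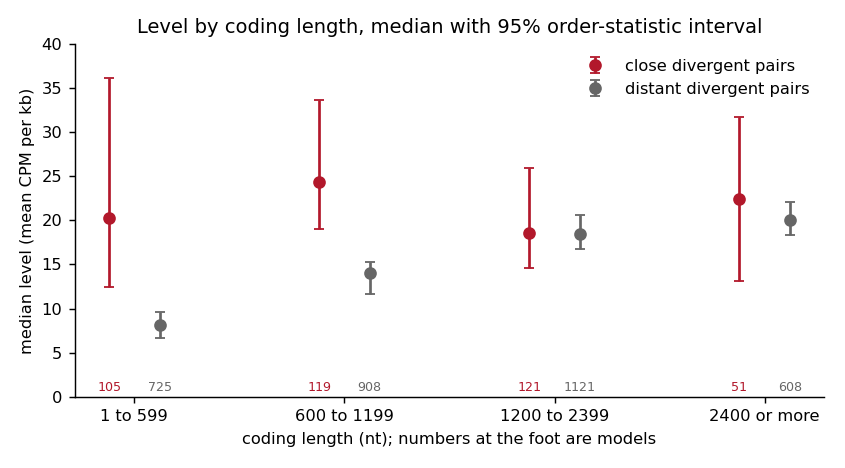
Median level (mean CPM per kb over both libraries) by coding length for members of close divergent pairs and partners of distant ones, with 95% order-statistic intervals over genes; numbers at the foot are models. Below 1200 nt the close medians, 20.3 and 24.3, lie above the distant ones, 8.13 and 13.99; from 1200 nt the intervals overlap.

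By gap, the median level was 12.3 CPM per kb at 1 to 300 bp (8.88 to 21.9, 32 pairs), 32.6 CPM per kb at 301 to 500 bp (25.2 to 45.8, 53 pairs), 17.8 CPM per kb at 501 to 750 bp and 20.6 CPM per kb at 751 to 1000 bp. Just beyond the limit, at 1001 to 2000 bp, it was 11.4 CPM per kb (9.31 to 14.5, 208 pairs). The median was thus highest at 301 to 500 bp and did not change steadily with distance. The intervals at 501 to 750 and 751 to 1000 bp were 13.8 to 22.9 and 15.3 to 28.3 CPM per kb. The latter overlaps that at 301 to 500 bp. Inside the limit, median coding lengths were 955.5, 937.5, 819 and 1447.5 nt in order of gap. The part of length in these levels was not tested.

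The 2 pairs just inside the gap limit had gaps of 996 and 991 bp. On scaffold 9, the partners at 11663691 to 11665647 and 11666644 to 11666785 had 7 and 1 symbiotic counts, and 5 and 0 aposymbiotic counts. On scaffold 7, the partners at 1346642 to 1350805 and 1351797 to 1353076 had 17.1 and 26.8 CPM per kb in the symbiotic library, and 18.1 and 19.1 in the aposymbiotic one. The 2 pairs just outside had gaps of 1001 bp, on scaffold 2 (9041757 to 9050993 and 9051995 to 9073560), and 1003 bp, on scaffold 4 (5623425 to 5627056 and 5628060 to 5632606). Their partners had 45.6 and 33.3, and 12.7 and 7.95 CPM per kb in the symbiotic library, against 45.4 and 34.1, and 9.47 and 4.69 in the aposymbiotic one. The inner pair on scaffold 9 was nearly silent, and the other 3 lay within the common range of levels.

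Partners in close pairs resembled each other in level more than partners in distant pairs by rank, but not in fold. Across the 198 close pairs, Spearman's rho between the partners' levels was 0.40, against 0.23 across 1681 distant pairs. It was 0.41 against 0.23 in the symbiotic library alone and 0.39 against 0.22 in the aposymbiotic library alone, where all pairs of a library share its depth. With both partners at 1 CPM or more, rho was 0.35 over 161 close pairs and 0.15 over 1204 distant pairs. At 10 CPM or more, it was 0.21 over 108 and 0.12 over 695. The shares of pairs within a set fold were alike, however. Levels lay within 4-fold of each other in 61.5% of the 161 close pairs (53.5 to 69.0), against 59.7% of distant pairs (56.9 to 62.5). At 10 CPM or more these shares were 63.9% (54.1 to 72.9) and 72.8% (69.3 to 76.1). Median differences between partners were 1.51 and 1.57 on the log2 scale with both at 1 CPM or more.

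Rank likeness was not confined to gaps under the limit. In divergent pairs with gaps of 1001 to 2000 bp, rho was 0.42 over 208 pairs, and it was 0.24, 0.16 and 0.19 at 2001 to 5000, 5001 to 10000 and over 10000 bp. Inside the limit it was 0.59 over the 32 pairs up to 300 bp, 0.22 over 53 pairs at 301 to 500 bp, 0.38 at 501 to 750 bp and 0.35 at 751 to 1000 bp. Same-strand close pairs had a rho of 0.57 and convergent close pairs one of 0.26. With both partners at 1 CPM or more, rho was 0.27 over 141 divergent pairs at 1001 to 2000 bp. Inside the limit it was then 0.40 over 26 pairs up to 300 bp and 0.066 at 301 to 500 bp. At 501 to 750 bp and 751 to 1000 bp it was 0.37 and 0.43. By the same cut, same-strand close pairs had 0.40 and convergent close pairs 0.15. Levels within 4-fold, with both partners at 1 CPM or more, were found in 83.7% of same-strand close pairs and 71.1% of convergent close pairs, both above the 61.5% of divergent ones. Read pairs were counted without strand, so RNA of a transcript that runs from 1 model over the gap into the other cannot be told apart from the other's own.

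**Figure D3:**
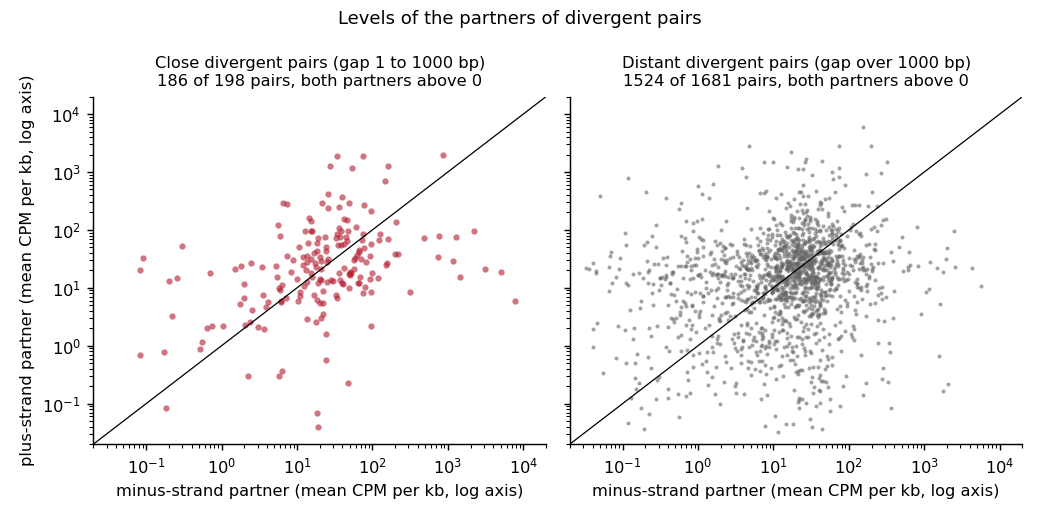
Level of the plus-strand partner against that of the minus-strand partner (mean CPM per kb over both libraries, log axes) for the 186 of 198 close and 1524 of 1681 distant divergent pairs with counts for both partners; the line marks equal levels. Points scatter widely about the line in both panels, with rho 0.40 over all 198 close and 0.23 over all 1681 distant pairs.

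The order of partners was stable between the libraries. Of 186 close pairs with counts for both partners, 174 had the same partner higher in both libraries, 93.5%, against 93.4% of distant pairs. The higher partner was on the plus strand in 102 and on the minus strand in 94 of the 198.

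The 8 pairs with the highest level of their lower partner are those in which both genes were most abundant. On scaffold 4, a gap of 766 bp separates an 8-exon gene (10322678 to 10325689, minus strand, 2157 nt) from a 4-exon gene (10326456 to 10329025, plus strand, 255 nt). The 8-exon gene had 878 symbiotic and 870 aposymbiotic CPM per kb, and the short 4-exon gene had 1847 and 2100. No other close pair had both partners above 200 CPM per kb. On scaffold 9, a gap of 609 bp lies between an 8-exon gene (14354537 to 14357735) of 158 symbiotic and 166 aposymbiotic CPM per kb and a 5-exon gene (14358345 to 14361330, 384 nt) of 1281 and 1242. On scaffold 2, with a gap of 361 bp, a 14-exon gene (7655016 to 7670548) had 148 and 141 CPM per kb and its 6-exon partner (7670910 to 7674350) 701 and 684.

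Closer in level were 2 of these pairs. On scaffold 6, a gap of 677 bp separates a 6-exon gene (12431418 to 12433844) of 199 symbiotic and 207 aposymbiotic CPM per kb from a 5-exon gene (12434522 to 12437322) of 143 and 126. On scaffold 1, a 14-exon gene (2102981 to 2109466) had 125 and 125 CPM per kb and its 15-exon partner, 559 bp away (2110026 to 2128422), had 83.5 and 86.8. The partners of these pairs differed by 1.51-fold and 1.47-fold, while the others in the group of 8 differed by 2.26-fold to 23.8-fold. The widest of these was on scaffold 6, where a 6-exon gene (13981715 to 13984308, minus strand) had 2178 symbiotic and 2309 aposymbiotic CPM per kb, and its 8-exon partner 370 bp away (13984679 to 13989618) had 90.6 and 97.6. Another pair on scaffold 1 (9206222 to 9211593 and 9212028 to 9217112, gap 434 bp) had 101 and 206 CPM per kb in the symbiotic, and 88.0 and 225 in the aposymbiotic library. Last of the 8 was a pair on scaffold 2 (808201 to 809369 and 810199 to 818615, gap 829 bp) with 800 and 78.8 symbiotic, and 744 and 79.3 aposymbiotic CPM per kb.

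**Figure D4:**
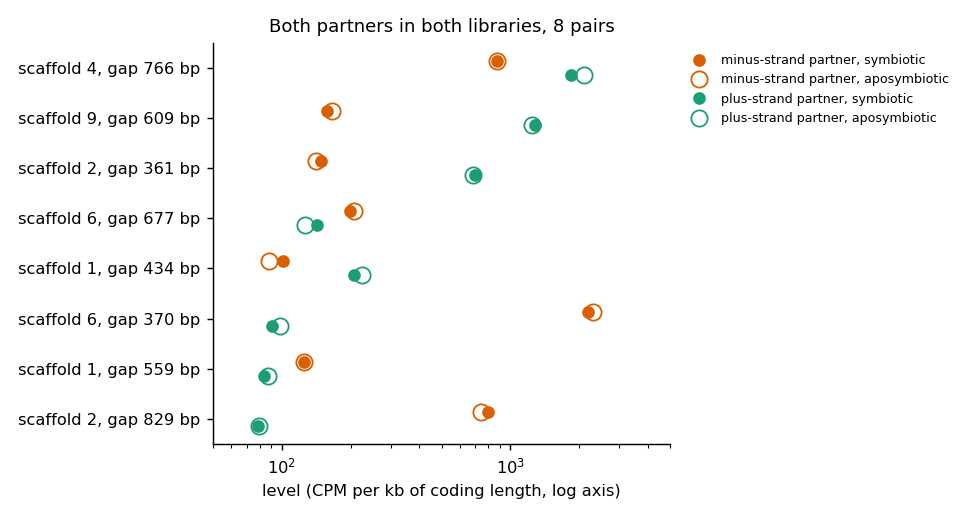
Levels (CPM per kb of coding length, log axis) of both partners in the symbiotic (filled) and aposymbiotic (open) library for the 8 close pairs with the highest level of their lower partner. Filled and open points of a gene nearly coincide, such as 878 and 870 in the first pair, while partners of 1 pair stand up to 23.8-fold apart.

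Very abundant genes stood beside partners of ordinary level. A partner at 1000 CPM per kb or more was present in 13 close pairs, and the median level of the other partner in them was 34.3 CPM per kb (18.9 to 94.1). In the 33 distant pairs with such a gene, the other partner had a median of 21.8 CPM per kb (9.80 to 28.2). The 10 largest members held 46.6% of all symbiotic and 47.2% of all aposymbiotic counts of close members.

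The widest gap in level was on scaffold 7, across 374 bp. A 2-exon gene on the minus strand (1820110 to 1821381, 1131 nt) had 60804 symbiotic and 49612 aposymbiotic counts, whereas the 3-exon model on the plus strand (1821756 to 1822349, 261 nt) had 11 and 8. Per kilobase these partners differed 1349-fold. This gene alone held 18.8% of the symbiotic and 19.0% of the aposymbiotic counts of close members. A second pair on scaffold 7 (7415377 to 7417384 and 7417751 to 7421381, gap 366 bp) had 5144 and 19.9 CPM per kb in the symbiotic, and 5017 and 17.8 in the aposymbiotic library. On scaffold 10, partners 522 bp apart (818531 to 820919 and 821442 to 825888) had 3140 and 22.0 symbiotic, and 3165 and 20.3 aposymbiotic CPM per kb. The next 3 by this measure, on scaffolds 1, 12 and 5 (gaps 437, 703 and 376 bp), differed 94.5-fold, 54.1-fold and 45.7-fold. In these 6 pairs, the abundant gene was on the minus strand 4 times and on the plus strand 2 times.

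The 6 pairs with the shortest gaps, of those with both partners at 1 CPM or more, had modest levels. On scaffold 4, with a gap of 76 bp, a 2-exon model (6544930 to 6545827) had 31 symbiotic and 24 aposymbiotic counts and its 3-exon partner (6545904 to 6548329) 24 and 9. With a gap of 108 bp on the same scaffold, the partners (10796965 to 10802649 and 10802758 to 10805510) had 13.8 and 33.3 symbiotic, and 10.1 and 34.9 aposymbiotic CPM per kb. The other 4 had gaps of 115 to 138 bp. Most alike were the partners on scaffold 5 at 14078585 to 14080445 and 14080561 to 14082605, which differed 1.08-fold, and those on scaffold 11 at 15306993 to 15312181 and 15312298 to 15313937, which differed 1.29-fold. On scaffold 8 (3208145 to 3213687 and 3213826 to 3216077, gap 138 bp) the levels were 34.4 and 48.9 symbiotic, and 35.6 and 60.2 aposymbiotic CPM per kb. Across these 6 pairs, partners differed between 1.08-fold and 4.83-fold.

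Without any count were 14 members. They lay in 12 pairs, 10 with a counted partner and 2 with none. Of these, the pairs named here were chosen after their values were seen. On scaffold 4, a 7-exon gene (5586498 to 5592492, plus strand) had 2239 symbiotic and 1770 aposymbiotic counts while the 2-exon model 483 bp away (5585687 to 5586014, 231 nt) had 0 and 0. On scaffold 2, a 16-exon gene (17729851 to 17735768) had 1397 and 1095 counts and its 2-exon neighbour across 843 bp (17736612 to 17738660) 0 and 0. Counts of 0 allow up to 0.439 CPM in the symbiotic and 0.537 CPM in the aposymbiotic library, taking 3 counts as the limit. Reads with several alignments were not admitted, so a repeated sequence can also be listed at 0.

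In 7 close pairs, 3.54%, the partners had the same exon number and coding lengths within 10% of each other, against 3.39% of distant pairs. Mirror-image models stood out among them. On scaffold 17, 2 models of 2 exons and 885 nt each (1260976 to 1261927 and 1262179 to 1263130) face away from each other across 251 bp, and both had 0 counts in each library. The same build recurs on scaffold 7 (1225336 to 1226311 and 1226563 to 1227538), again with 885 nt on each side and a gap of 251 bp, with 1 and 1 symbiotic counts, and 1 and 0 aposymbiotic counts. Near-identical copies could lose their reads to several alignments, so the levels of these models are uncertain. Other look-alike pairs were expressed, such as the 5-exon partners on scaffold 1 (31087844 to 31089381, 390 nt, and 31089724 to 31092187, 366 nt) with 36.0 and 51.1 symbiotic, and 40.9 and 58.2 aposymbiotic CPM per kb.

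Between the libraries, members of close pairs differed little. On the log2 scale, symbiotic over aposymbiotic CPM had a median ratio of 0.018 over the 351 members of at least 1 CPM (-0.0060 to 0.042), against 0.026 over 2787 distant partners and 0.013 over all 16162 models tested. At least 2-fold differences, with a 95% counting interval that excludes equality, set 2 symbiotic members above and 1 below the aposymbiotic value, 0.570% and 0.285%. Over all models tested, 0.947% were higher and 1.42% lower by this rule. Among distant partners, 24 were higher and 25 lower, 0.861% and 0.897%. At 4-fold, 1 member was higher and none lower, where 0.278% and 0.303% of all models tested were. This member is 1 of the 2 above 2-fold, and it reached a mean of 1 CPM only through the symbiotic library, with 2.78 symbiotic and 0.537 aposymbiotic CPM, so it had to differ to be counted. With 1 library per condition no test was possible.

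Ratios of abundant members had a small median distance from equality. At 100 CPM or more, the median absolute log2 ratio was 0.060 over 71 close members (0.045 to 0.095), against 0.11 over 513 distant partners (0.10 to 0.12) and 0.11 over all 1943 such models with 2 or more exons. It was 0.079 (0.054 to 0.11) in divergent pairs at gaps of 1001 to 2000 bp and 0.087 (0.073 to 0.11) in same-strand close pairs, whose intervals overlap that of the close members. The share within 0.5 of equality on the log2 scale was no higher in close members, at 95.8% (88.1 to 99.1), than in distant partners, at 97.7%, or in all such models, at 97.3%. These close members had a median of 3055 counts in both libraries together and 1542 nt, the distant partners 2332 counts and 2168 nt; the part of depth and length in the difference was not tested. Over members of 1000 counts or more, log2 ratios had a robust standard deviation of 0.103 (92 members), against 0.161 over all 2534 such models. The median counting standard errors were 0.0632 and 0.0677, so counting error covers only part of either spread. At lower counts the spreads were alike, at 0.509 among close members and 0.495 among all models of 20 to 99 counts.

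The 3 members past the 2-fold rule lay in 3 different pairs, and their partners did not pass it. Model cHydvir-v1B3C1_g13018 (scaffold 15, 5054996 to 5056891, plus strand, 5 exons) had 19 symbiotic and 3 aposymbiotic counts, a log2 ratio of 2.21 (0.61 to 4.77). Its minus-strand partner 438 bp away (5051370 to 5054557, 2 exons) had 7 and 2 counts, too few to enter the comparison. Model cHydvir-v1B3C1_g29206 (scaffold 7, 6379610 to 6381672, minus strand, 4 exons) had 21 and 6 counts, a log2 ratio of 1.45 (0.16 to 3.11). Across 536 bp, its 4-exon partner (6382209 to 6383328) had 411 and 367 counts, at -0.13 on the log2 scale (-0.34 to 0.078). Both higher members thus rest on few counts.

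Better supported was the 1 lower member. Model cHydvir-v1B3C1_g4794 (scaffold 10, 4485981 to 4507500, plus strand, 35 exons, 5910 nt) had 68 symbiotic and 159 aposymbiotic counts, 1.68 and 4.82 CPM per kb, a log2 ratio of -1.51 (-1.95 to -1.10). The 2-exon model across 889 bp (4483025 to 4485091) had 2 and 3 counts, so no ratio of use can be given for it.

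Over all close pairs, no common shift of partners between the libraries was detectable. Across the 161 close pairs with both partners at 1 CPM or more, Spearman's rho of the log2 ratios was -0.0058, against 0.036 across 1204 distant pairs. With both partners at 10 CPM or more, where counting error is smaller, it was 0.059 over 108 close and 0.059 over 695 distant pairs. The ratios had the same sign in 84 of 161 close pairs, 52.2% (44.2 to 60.1), against 51.2% of distant pairs (48.3 to 54.0). Same-strand and convergent close pairs had 52.4% and 53.3%. By gap, the share ran from 42.2% at 301 to 500 bp to 64.3% at 751 to 1000 bp, with 53.8% up to 300 bp and 24 of 48 pairs at 501 to 750 bp; the smallest class held 26 pairs. With both partners at 10 CPM or more, the class of 751 to 1000 bp had the same sign in 22 of 30 pairs, 73.3% (54.1 to 87.7), and a ratio rho of 0.33. The other classes had 10 of 18 pairs up to 300 bp, 16 of 35 at 301 to 500 bp and 13 of 25 at 501 to 750 bp. Their ratio rhos were 0.075, -0.042 and -0.13. For the 30 pairs at 751 to 1000 bp, Pearson's r of the log2 ratios was 0.14. Over the 42 pairs of that class at 1 CPM or more, rho was 0.16 and Pearson's r -0.17. No test was made of the difference between classes. Most ratios were small, and shifts below counting error were not detectable at this depth.

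**Figure D5:**
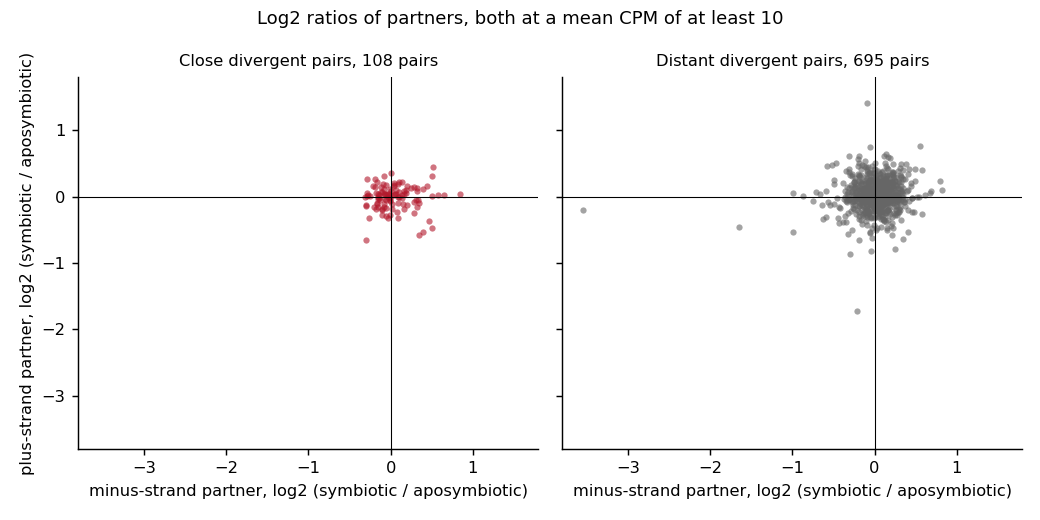
Log2 ratio (symbiotic over aposymbiotic) of the plus-strand against the minus-strand partner for the 108 close and 695 distant divergent pairs with both partners at a mean of 10 CPM or more. Most points lie in a round cloud about 0 in both panels, with rho 0.059 in each.

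Single pairs in which both partners left equality went either way. Taking every member whose 95% counting interval excludes equality, whatever its fold, 43 of 351, 12.3%, were higher in symbiotic polyps and 30, 8.55%, were lower. Over all models tested these shares were 10.5% and 7.9%. Among tested models with 2 or more exons they were 12.5% and 8.69%, near those of the members. Both partners' intervals excluded equality in 9 close pairs, both higher in 4, both lower in 2 and in opposite directions in 3. This is 3.73% of 161 pairs in the same and 1.86% in opposite directions. Among distant pairs the shares were 3.41% and 2.49%. The positions of these pairs were chosen by this criterion after the values were seen.

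The pairs that were higher on both sides included one on scaffold 1 across 307 bp, where an 11-exon gene (31049152 to 31053303) had 3963 symbiotic and 2287 aposymbiotic counts, a log2 ratio of 0.50 (0.43 to 0.58). Its 15-exon partner (31053611 to 31063495) had 432 and 284 counts, at 0.31 on the log2 scale (0.094 to 0.53). On scaffold 2, across 960 bp, a 10-exon gene of 4857 nt (6532933 to 6539442) and an 8-exon gene (6540403 to 6543166) had log2 ratios of 0.52 (0.44 to 0.60) and 0.45 (0.22 to 0.68), from 3219 and 417 symbiotic and 1834 and 250 aposymbiotic counts. A pair on scaffold 5 (14620623 to 14632961 and 14633300 to 14638705, gap 338 bp) had ratios of 0.45 and 0.17, and one on scaffold 6 (5537405 to 5541392 and 5542057 to 5545817, gap 664 bp) ratios of 0.30 and 0.86. All of these ratios are below 2-fold.

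Both partners were lower in the symbiotic library in 2 pairs on scaffold 5. With a gap of 132 bp, a 3-exon gene (2261996 to 2263911) had 383 symbiotic and 385 aposymbiotic counts, and its 2-exon partner (2264044 to 2265773) 69 and 89; the library totals differ, so their log2 ratios were -0.30 (-0.51 to -0.092) and -0.66 (-1.13 to -0.19). Across 248 bp, a 12-exon (9191401 to 9195466) and a 9-exon gene (9195715 to 9208433) had log2 ratios of -0.26 and -0.32.

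Opposite shifts were seen across gaps of 368, 384 and 907 bp, and in none of the 26 pairs with gaps up to 300 bp (0% to 13.2%). Members at gaps up to 300 bp also had fewer counts, with a median of 288 at 10 CPM or more. In the classes of 301 to 500, 501 to 750 and 751 to 1000 bp it was 716, 493.5 and 615.5. Fewer counts give wider intervals, so the absence in this small class says little about short gaps. On scaffold 2, with 368 bp between them, a 4-exon gene (21726418 to 21728852) had 435 symbiotic and 271 aposymbiotic counts, a log2 ratio of 0.39 (0.17 to 0.61), and its 10-exon partner (21729221 to 21732630) had 282 and 332, a log2 ratio of -0.53 (-0.76 to -0.29). Another pair on scaffold 2, across 907 bp (2953755 to 2958514 and 2959422 to 2961173), had log2 ratios of 0.51 (0.30 to 0.72) and -0.47 (-0.86 to -0.096). On scaffold 1, across 384 bp, a 3-exon gene (37306129 to 37309875) stood at -0.19 and a 23-exon gene (37310260 to 37320846) at 0.26. In 13 of the 161 close pairs, 8.07%, the partners' counting intervals did not overlap, against 10.3% of distant pairs. By gap these were 0 of 26 pairs up to 300 bp (0% to 13.2%), 6 of 45 at 301 to 500 bp, 2 of 48 at 501 to 750 bp and 5 of 42 at 751 to 1000 bp. For members of many counts these intervals are narrower than the spread of ratios given above.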

How the data were processed

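The authors deposited counts for 1 symbiotic and 1 aposymbiotic library. Per the file headers, featureCounts (Subread 2.1.1) counted read pairs over exons of each model, without strand, multiple alignments or reads shared by models. Per the submitters' processing notes, fastp 1.1.0 and STAR 2.7.11b were used; for the build, nothing is given in the sources used here. Model lengths are multiples of 3 in 98.4% of models and are called coding lengths. No genome was used, so no sequence is printed.

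From the counts, CPM was computed on totals scaled by TMM (factors 0.991 symbiotic, 1.01 aposymbiotic; edgeR 4.0.16, R 4.3.3). The log2 ratio of symbiotic over aposymbiotic used a prior count of 0.5 and models of a mean CPM of at least 1. Its exact 95% intervals are conditional on the sum of the symbiotic and aposymbiotic counts of a model (Clopper-Pearson). Intervals and floors cover counting error only. Gaps count the bases between the outermost coding positions. A model in several pairs of a set was counted once in levels and ratios.

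Members and named pairs were chosen with earlier results of these data known. Named were the 8 pairs with the highest lower partner, the 6 shortest gaps, members past the 2-fold rule, the 6 largest level differences and the pairs beside the gap limit; other pairs are marked as chosen later. No pair had both partners past the 2-fold rule. Procedures were tested on simulated data with counting error only, so the wider spread of the real ratios was not covered. Python 3.11.15 was used with scipy 1.17.1, pandas 2.3.3, matplotlib 3.10.9 and numpy 2.4.6.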

Additional observations from a re-analysis of the deposited data

How the results depend on the processing

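Of 145 alternative values for 20 results, 113 stayed within the interval of the reported value, or within 1.5 times a count, 31 moved outside it, and 1 whose reported interval excludes 0 changed sign. The close median ratio and the close ratio rho, whose intervals span 0, changed sign too under some settings, for example to -0.00081 and 0.059 with a mean CPM of at least 10. Leaving out the 7 look-alike pairs was chosen after seeing the data. With total counts alone, the median log2 ratio was -0.0092 for close members and -0.0017 for distant partners, so the sign of these medians rests on the scaling. With a mean CPM of at least 10, 0 close members were 2-fold higher, and 72.8% of distant pairs lay within 4-fold; with every pair of at least 1 count, 51.1% did. Levels restricted to a mean CPM of at least 1 had medians of 25.7 CPM per kb for close and 20.8 for distant pairs, and a distant rho of 0.15. With no interval required, 4 close members were 2-fold lower. With a gap limit of 500 bp, 1 close member was 2-fold higher and 0 lower, and the close median level was 25.3 CPM per kb; with distant pairs over 10000 bp, the distant median was 14.5. With any number of exons, 4 close members were higher and 8 lower, the median level was 0 for close and 2.48 CPM per kb for distant pairs, and the level rho was 0.74 and 0.38; the medians of level then stand in the opposite order. Without dividing by length, the distant median was 18.7 CPM and 52.4% of distant pairs lay within 4-fold. The cause of these moves was not tested. No paired analysis was possible because each group has 1 library; for the same reason none could be left out. Below about 100 counts, depth limits what a single ratio shows.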
